A study of Mus musculus with 1470 samples.

Results

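The Fc receptor genes of the mouse liver are described here as 6 of the 14915 gene rows of a single-cell expression table: Fcgr1, Fcgr2b, Fcgr3, Fcgr4, Fcer1g and Fcgrt, chosen by their symbols and not by their values. They were measured in non-parenchymal cells (all liver cells that are not hepatocytes) from 6 male C57BL/6J mice, 3 fed normal chow (ND1 to ND3, 718 cells) and 3 fed a high-fat diet from a young age (HFD1 to HFD3, 752 cells). By the study's methods the mice of both groups were wild type. Each live sorted cell gave 1 Smart-seq2 library, and the deposited values are RPKM (read counts scaled to gene length and to the reads of the cell). The question asked of the table was in which liver cells each receptor gene was found, and whether its level differed between the diets.

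Fc receptors bind the constant part of antibodies. The activating receptors for IgG (Fcgr1, Fcgr3 and Fcgr4) need the common gamma chain encoded by Fcer1g for transport to the surface and for signalling through its ITAM, a tyrosine motif that recruits the kinase Syk. Fcgr2b is the inhibitory receptor, which carries an ITIM, a tyrosine motif that recruits the phosphatase encoded by Inpp5d, and it is known on B cells and on liver sinusoidal endothelial cells, where it takes up small immune complexes. Fcgrt encodes FcRn, which pairs with beta-2-microglobulin (B2m) and returns IgG and albumin from endosomes to the blood. NK cells are known for antibody-dependent killing through Fcgr3.

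In RefSeq (GRCm38.p6) 4 of the 6 genes lay within 274 kb of chromosome 1, in the order Fcgr2b (chr1:170960558-170976071, minus strand), Fcgr4 (chr1:171018926-171029761, plus strand), Fcgr3 (chr1:171051169-171065915, minus strand) and Fcer1g (chr1:171229572-171234349, minus strand). Fcgr1 lay at chr3:96282909-96293969 and Fcgrt at chr7:45092993-45103822, each on the minus strand. These neighbours, Fcgr2b, Fcgr4, Fcgr3 and Fcer1g, had their highest level among the 6 main cell classes in endothelial-like, Kupffer-cell-like, Kupffer-cell-like and NK-like cells. Among the 6 main classes the 3 activating receptor genes had their highest means in Kupffer-cell-like cells, for Fcgr1 without a resolved lead over monocyte-derived-like cells. Their promoters are printed below with that of Fcgr2b, the inhibitory receptor, beside them. Each window runs from 250 bases before the RefSeq start site to 50 bases after it, 5′ to 3′ on the gene's strand, and capitals mark the letters AGAGGAAG read on the opposite strand (CTTCCTCT as printed), a purine-rich ETS or PU.1-type motif.
Fcgr1 promoter (chr3:96293920-96294219): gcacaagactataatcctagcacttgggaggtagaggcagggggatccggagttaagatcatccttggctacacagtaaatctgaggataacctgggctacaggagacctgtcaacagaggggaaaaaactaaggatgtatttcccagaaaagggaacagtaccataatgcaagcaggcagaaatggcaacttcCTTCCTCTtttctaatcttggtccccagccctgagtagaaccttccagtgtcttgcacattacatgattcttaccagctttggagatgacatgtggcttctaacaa
Fcgr3 promoter (chr1:171059354-171059653): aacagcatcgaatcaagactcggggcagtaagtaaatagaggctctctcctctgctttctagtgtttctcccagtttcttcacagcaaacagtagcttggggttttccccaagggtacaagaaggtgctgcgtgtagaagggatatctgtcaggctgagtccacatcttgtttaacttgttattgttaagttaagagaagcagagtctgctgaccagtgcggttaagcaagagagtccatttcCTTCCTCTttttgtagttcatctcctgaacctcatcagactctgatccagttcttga
Fcgr4 promoter (chr1:171018676-171018975): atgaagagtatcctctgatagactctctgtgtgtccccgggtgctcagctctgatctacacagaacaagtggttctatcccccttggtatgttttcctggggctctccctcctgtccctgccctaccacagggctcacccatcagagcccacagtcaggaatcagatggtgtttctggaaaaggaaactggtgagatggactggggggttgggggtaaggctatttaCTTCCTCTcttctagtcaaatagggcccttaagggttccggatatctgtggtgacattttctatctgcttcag
Fcgr2b promoter (chr1:170976022-170976321): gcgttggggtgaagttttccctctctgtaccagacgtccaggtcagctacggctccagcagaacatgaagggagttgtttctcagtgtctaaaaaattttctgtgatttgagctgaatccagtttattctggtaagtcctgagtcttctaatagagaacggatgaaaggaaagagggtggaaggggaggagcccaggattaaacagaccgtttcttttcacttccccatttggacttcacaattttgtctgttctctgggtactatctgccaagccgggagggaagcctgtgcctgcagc
The letters AGAGGAAG, searched on both strands, were in 3 of the 6 members' windows and in 4.55% of the 32851 mouse promoters of the same length. They began at position -56 in Fcgr1, -7 in Fcgr3 and -23 in Fcgr4 relative to the start site. The shorter GAGGAA, which lies inside the longer motif, was in the same 3 windows and in 28.3% of all promoters. Of 3 further motifs searched on both strands, GGGCGG (35.7% of promoters), TTGCGCAA (0.183%) and TATAAA (13.6%), 0 of the 6 windows held any. The Fcgr3 window lies inside the span that RefSeq lists for that gene. A match of letters is a description of the window and not a binding site.

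Cells were put into classes by clustering on fixed marker genes, none of them a member, and each cluster was named only from those markers. The 6 main classes were Kupffer-cell-like (KC-like, resident macrophages; 240 cells), endothelial-like (458), monocyte-derived-like (61, dendritic cells included), NK-like (50), B-cell-like (23 to 53 cells a mouse) and T-cell-like (18 to 76 cells a mouse). In KC-like cells the 10 KC markers averaged 10.58 on the log2(RPKM + 1) scale, and the 13 endothelial markers averaged 9.62 in endothelial-like cells. The KC markers were not at 0 elsewhere: in the other 5 main classes their mean was between 1.06 and 1.35 in mouse HFD2 and between 4.03 and 5.42 in mouse HFD3, the lowest and the highest of the 6 mice in each class. Mouse HFD2 also had the fewest genes per cell (median 1596, against 2364 to 3163 in the other mice). The estimated median depth per cell ran from 86693 to 196050 reads over the mice.

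Levels are given as the mean of log2(RPKM + 1) over the cells of a class in each mouse, then as the mean ± SD of the 6 mice. Among the 6 main classes KC-like cells were highest for all 3 activating receptors and high for Fcer1g and Fcgrt, endothelial-like cells were highest for Fcgr2b and Fcgrt, NK-like cells had Fcer1g at the KC-like level with little Fcgr3, and B-cell-like cells had Fcgr2b without the activating receptors. Ordering the 6 classes by their means gave 30 pairs of neighbours over the 6 genes, and in 10 of them the higher class was higher in every mouse (exact two-sided sign-flip test, p = 0.03125 unadjusted, the smallest p that 6 mice allow).

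**Figure D1:**
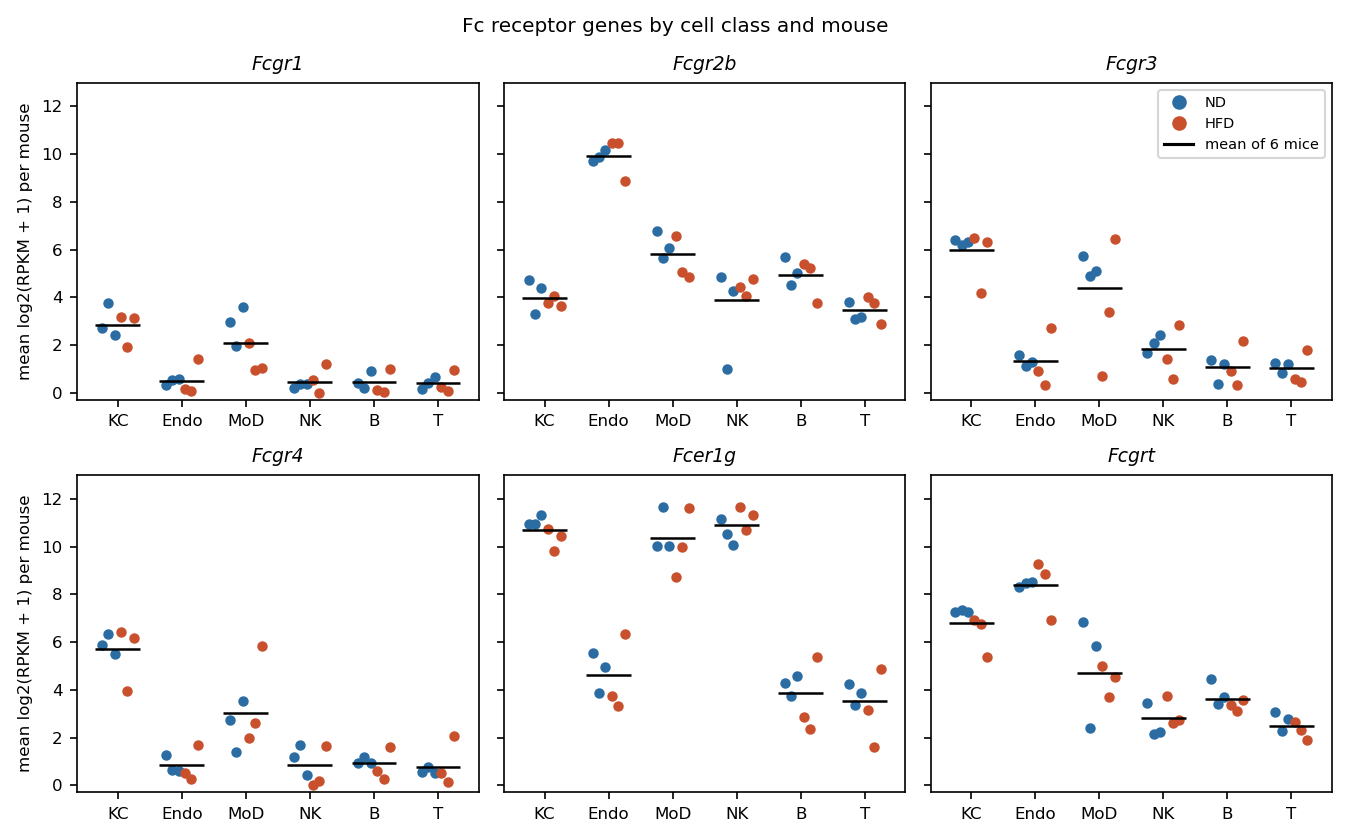
Level of each Fc receptor gene, as mean log2(RPKM + 1) (vertical axis), in the 6 main cell classes (KC, Kupffer-cell-like; Endo, endothelial-like; MoD, monocyte-derived-like; NK; B; T). Points are mice by diet, and lines give the mean of the 6 mice. Fcgr2b and Fcgrt peak in endothelial-like cells, with means of 9.92 and 8.39. Fcgr1, Fcgr3 and Fcgr4 peak in KC-like cells, with means of 2.85, 5.99 and 5.71.

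Fcgr3, the low-affinity activating receptor, had means in KC-like cells of 6.40, 6.21 and 6.34 in the ND mice and of 6.49, 4.16 and 6.33 in the HFD mice, which makes 5.99 ± 0.90 (SD, n = 6). Mouse HFD2 was lowest and the other 5 mice lay within a narrow range. Monocyte-derived-like cells followed at 4.37 ± 2.07, with means of 5.72, 4.89 and 5.10 in ND mice and of 0.68, 3.39 and 6.45 in HFD mice, so that mouse HFD1 had almost none. NK-like cells were at 1.84 ± 0.80, endothelial-like at 1.32 ± 0.79, B-cell-like at 1.06 ± 0.70 and T-cell-like at 1.02 ± 0.50. NK-like cells were above endothelial-like cells in 6 of 6 mice (exact sign-flip p = 0.03125). Outside the 6 main classes Fcgr3 was at 8.19 ± 1.58 in the neutrophil-like cells of the 3 mice with at least 3 of them (ND2, ND3 and HFD1). Over all 15 neutrophil-like cells the mean was 6.61, and in HFD2, with 2 cells, it was 0.

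Fcgr4, an activating receptor of macrophages, monocytes and neutrophils, was at 5.87, 6.35 and 5.51 in the KC-like cells of ND mice and at 6.43, 3.94 and 6.18 in those of HFD mice (5.71 ± 0.93). Again mouse HFD2 stood lowest. Monocyte-derived-like cells had 3.02 ± 1.56, from 1.40 in ND2 to 5.84 in HFD3, and B-cell-like cells came next at 0.91 ± 0.47. Each of these steps down held in 6 of 6 mice (exact sign-flip p = 0.03125), whereas B-cell-like, NK-like (0.85 ± 0.75), endothelial-like (0.84 ± 0.54) and T-cell-like cells (0.76 ± 0.67) did not differ from their neighbours beyond the spread over mice.

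Fcgr1, the high-affinity activating receptor, was the least abundant of the activating receptors in KC-like cells, at 2.72, 3.75 and 2.42 in ND mice and 3.18, 1.91 and 3.11 in HFD mice (2.85 ± 0.64). Monocyte-derived-like cells had 2.10 ± 1.03, higher than KC-like cells in 2 of the 6 mice, and the exact sign-flip p between the classes was 0.25. The other 4 classes lay between 0.41 and 0.50, and no neighbours among them differed beyond their spread. Per length, mean RPKM over the KC-like cells was 444 for Fcgr3 and 443 for Fcgr4, and Fcgr1 was lower than both.

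Against monocyte-derived-like cells, KC-like cells had more Fcgr4, by 2.69 (SE 0.50, adjusted p = 0.000432), more Fcgr3, by 1.61 (SE 0.55, adjusted p = 0.0276), and more Fcgrt, by 2.09 (SE 0.47, adjusted p = 0.00230), and less Fcgr2b, by -1.84 (SE 0.35, adjusted p = 0.000513). The differences were in the same direction in 6 of 6 mice for Fcgr4, Fcgrt and Fcgr2b and in 5 of 6 for Fcgr3. The difference was 0.75 (SE 0.41, adjusted p = 0.142) for Fcgr1 and 0.36 (SE 0.41, adjusted p = 0.466) for Fcer1g. These are limma fits of the within-mouse differences, with Benjamini-Hochberg adjustment over all 5221 genes tested. Thus 4 of 6 members were called, beside 39.2% of all genes; 3 were higher in KC-like cells, beside 6.09%, and 1 was lower, beside 33.1%. The median difference was 1.18 over the members and -0.68 over all genes. Of the 61 monocyte-derived-like cells 32 were cDC-like (conventional dendritic), with a mean Fcgr4 over cells of 1.38, against 6.06 in the MoMac1-like cells, a subgroup led by genes of patrolling monocytes, and 5.82 in KC-like cells. The 11 MoMac2-like cells, led by genes of classical monocytes, had 1.80. The Fcgr3 call rested on mouse HFD1: without it the difference was 0.78, and over 17 alternative settings its adjusted p ran from 0.00718 to 0.305. The number of members called fell from 4 to 1 without the filter on low genes, and to 1 when RPKM was averaged before the logarithm, with Fcgr2b left in each, while the calls over all genes fell from 2047 to 976 and 820. The filter leaves the differences themselves unchanged, and with averaged RPKM they were 1.96 for Fcgr4, 1.71 for Fcgr3 and 2.57 for Fcgrt.

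Against endothelial-like cells all 6 members were called, beside 55.4% of the 4769 genes tested (18% higher in KC-like and 37.4% higher in endothelial-like cells). Fcgr1 and Fcgr4 had means under 1 in endothelial-like cells (0.50 and 0.84) and were tested only because their KC-like means were over the filter of 1, so their direction was fixed by the filter and their calls are given as a description. KC-like cells were higher in Fcer1g by 6.08 (SE 0.33), Fcgr4 by 4.88 (SE 0.27), Fcgr3 by 4.66 (SE 0.26) and Fcgr1 by 2.35 (SE 0.24), and lower in Fcgr2b by -5.94 (SE 0.25) and Fcgrt by -1.57 (SE 0.22), each in 6 of 6 mice. The Fcgrt call was lost when RPKM was averaged before the logarithm (difference -0.51, limma adjusted p = 0.385).

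Between endothelial-like and monocyte-derived-like cells 6 of 6 members were called, beside 43.2% of the 5779 genes tested, Fcgr1 and Fcgr4 again only through the class in which they were high; the Fcgr1 call was lost without the filter on low genes (adjusted p = 0.0756 in limma). Fcgr2b was higher in endothelial-like cells by 4.10 (SE 0.34) and Fcgrt by 3.67 (SE 0.50), and Fcer1g was lower by -5.72 (SE 0.41), Fcgr3 by -3.05 (SE 0.47), Fcgr4 by -2.19 (SE 0.40) and Fcgr1 by -1.60 (SE 0.40). When cells with markers of another class were left out, 3 mice remained, with 3 (ND2), 3 (HFD1) and 4 (HFD2) monocyte-derived-like cells. In these mice 3 members were called, namely Fcgr2b, Fcer1g and Fcgrt, while over all genes 937 were called in place of 2498. There the difference was -1.65 for Fcgr1, -2.17 for Fcgr3 and -0.59 for Fcgr4.

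**Figure D2:**
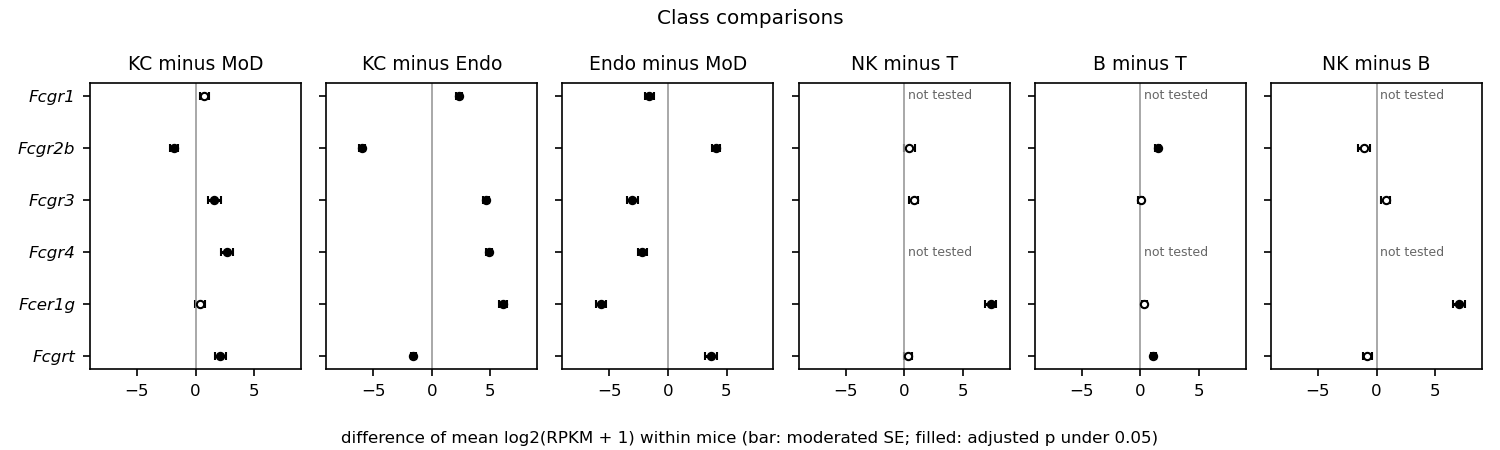
Difference in mean log2(RPKM + 1) between pairs of cell classes for each Fc receptor gene tested, with bars of 1 SE from the limma fit; filled and open points mark adjusted p under and over 0.05. KC-like cells exceed endothelial-like cells by 6.08 in Fcer1g and fall short of them by 5.94 in Fcgr2b, and NK-like cells exceed T-cell-like cells by 7.39 in Fcer1g.

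Fcgr2b was at 9.69, 9.89 and 10.18 in the endothelial-like cells of ND mice and at 10.47, 10.45 and 8.88 in those of HFD mice (9.92 ± 0.60). All 6 values were above every value of any other main class. Monocyte-derived-like cells had 5.82 ± 0.79 (4.85 to 6.78), B-cell-like cells 4.93 ± 0.69 (3.77 to 5.67), KC-like cells 3.98 ± 0.52 (3.32 to 4.74), NK-like cells 3.89 ± 1.45 (0.999 to 4.86) and T-cell-like cells 3.46 ± 0.46 (2.90 to 4.01). The step from endothelial-like to monocyte-derived-like and that from B-cell-like to KC-like cells held in 6 of 6 mice (exact sign-flip p = 0.03125), and the order of KC-like, NK-like and T-cell-like cells was not resolved. Mean RPKM over endothelial-like cells was 2259, against 42.4 over KC-like and 18.2 over T-cell-like cells.

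Counting only cells at or above 100 RPKM separates these levels further. Fcgr2b reached it in 406 of 458 endothelial-like cells (88.6%, 95% exact binomial interval 85.4% to 91.4%), in 27 of 61 monocyte-derived-like cells (44.3%, 31.5% to 57.6%), in 57 B-cell-like cells (22.9%, 17.8% to 28.6%), in 6 of 50 NK-like cells (12%, 4.53% to 24.3%), in 24 of 240 KC-like cells (interval 6.51% to 14.5%) and in 3 T-cell-like cells (0.971%, 0.201% to 2.81%). Most endothelial-like cells were therefore high in Fcgr2b, while the rest of them had a median of 4.56 on the log2 scale. Monocyte-derived-like and B-cell-like cells were mixed. Intervals cover counting error only, and cells of a mouse are not independent. T-cell-like cells, which should lack the gene, still had at least 1 RPKM of Fcgr2b in 87.7% of cells, so the share of cells with any Fcgr2b was not used to compare the classes.

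Fcer1g, the common gamma chain, split the classes into a high and a low set. It was at 11.16, 10.52 and 10.06 in the NK-like cells of ND mice and 11.67, 10.69 and 11.33 in those of HFD mice (10.90 ± 0.59), at 10.70 ± 0.52 in KC-like and at 10.34 ± 1.12 in monocyte-derived-like cells, and these 3 classes did not differ beyond the spread over mice (exact sign-flip p = 0.594 and 0.5 between neighbours). The low set held endothelial-like cells at 4.63 ± 1.18, B-cell-like cells at 3.86 ± 1.13 and T-cell-like cells at 3.52 ± 1.13. No value of the low set reached the high set: its highest was 6.34, in the endothelial-like cells of HFD3, and the lowest of the high set was 8.74. Neutrophil-like cells (11.15 ± 0.28, n = 3 mice) and pDC-like cells (plasmacytoid dendritic, 8.96 to 10.32 in 4 mice) also had high levels. In KC-like cells Fcer1g, at a mean RPKM of 3184, was far above the receptors that it carries, at 444 and below.

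Fcgrt, the gene of FcRn, was at 8.29, 8.49 and 8.50 in the endothelial-like cells of ND mice and at 9.28, 8.86 and 6.92 in those of HFD mice (8.39 ± 0.80). KC-like cells had 6.82 ± 0.74, monocyte-derived-like cells 4.72 ± 1.57, B-cell-like cells 3.60 ± 0.46, NK-like cells 2.82 ± 0.64 and T-cell-like cells 2.49 ± 0.41. The first of these steps, endothelial-like over KC-like, and the next, KC-like over monocyte-derived-like, held in 6 of 6 mice (exact sign-flip p = 0.03125). Fcgrt was at or above 100 RPKM in 78.8% of the 458 endothelial-like cells, 55.8% of the 240 KC-like cells, 29.5% of the 61 monocyte-derived-like cells and 9.64% of the B-cell-like cells. Its partner B2m, which was among the listed pathway genes and is named for that role, was at 11.99 ± 0.23 in KC-like and 11.78 ± 0.17 in endothelial-like cells and was detected in every cell of the 6 main classes.

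Low levels of a receptor in a class were set beside those of genes that mark KC-like cells, because RNA of lysed cells can enter any well. In endothelial-like cells, mean RPKM as a share of the KC-like mean of the same mouse had a median over mice of 1.09% for Fcgr1, 1.04% for Fcgr3 and 0.708% for Fcgr4, against 0.735% for Clec4f, 0.594% for C1qa and 0.637% for Cd5l, which are KC marker genes. Fcer1g was at 6.45% (3.82% to 12.5% over mice), and it was above the share of Clec4f in all 6 mice. In B-cell-like cells the activating receptors and Fcer1g lay between 0.543% and 0.990%, and Clec4f was at 0.603%. In monocyte-derived-like cells the shares were 46.4% for Fcgr1, 65.1% for Fcgr3, 44.3% for Fcgr4 and 85.4% for Fcer1g, against 0.271% for Clec4f.

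**Figure D3:**
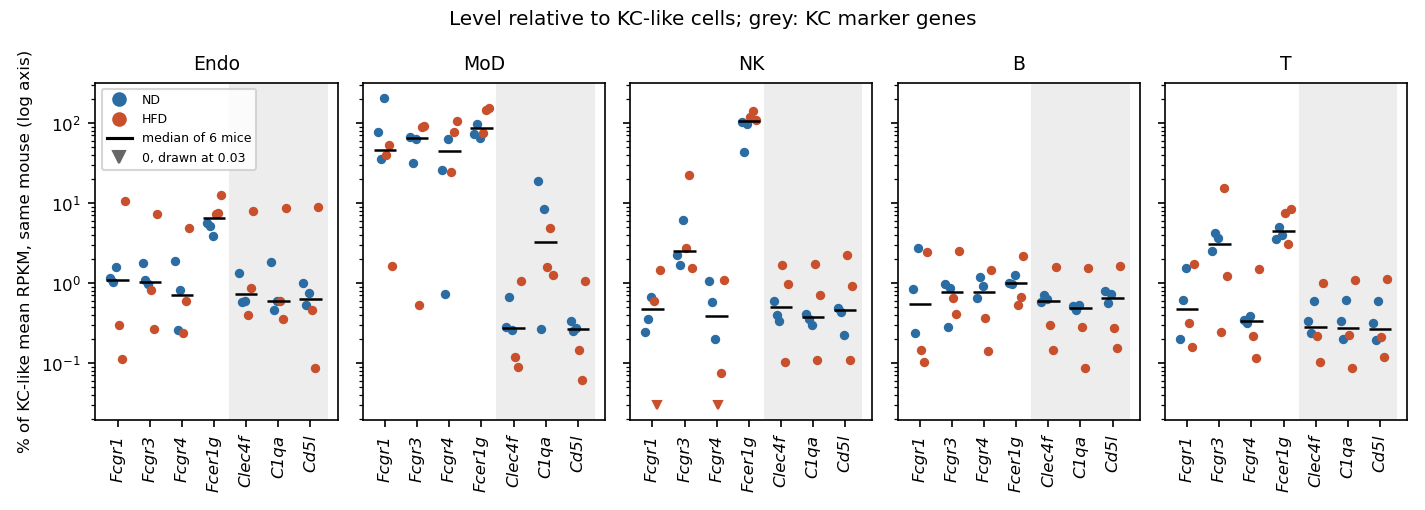
Mean RPKM in each class as a percentage of the KC-like mean of the same mouse (vertical log axis), for the activating receptors, Fcer1g and 3 KC marker genes; points are mice, and triangles at the foot stand for values of 0. In endothelial-like cells Fcer1g lies at a median of 6.45%, above Clec4f at 0.735%, while Fcgr1, Fcgr3 and Fcgr4 lie at 0.708% to 1.09%.

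The Fcer1g signal in endothelial-like cells sat in a subset. At or above 100 RPKM were 27.5% of the 458 cells (95% exact binomial interval 23.5% to 31.8%), from all 6 mice, with a median of 8.64 on the log2 scale. Among these cells the median was 10.23 for Stab2 and 10.91 for Fcgr2b, and genes of other cell types were at or above 100 RPKM in a larger share of them than of the remaining endothelial-like cells. For the macrophage genes the shares were 15.1% against 5.12% (Clec4f) and 32.5% against 14.8% (C1qa), and for Tyrobp 33.3% against 14.5%. The T cell gene Cd3e was at that level in 11.1% against 1.51%, the B cell gene Cd79a in 12.7% against 1.81%, and Fcgr3 in 4.76% against 0%, where a count of 0 allows up to 0.904%. The subset was formed on Fcer1g itself after its values were seen, so these counts are a description; whether doublets or free RNA have a part in it was not tested.

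For Fcgr2b the same comparison was made with endothelial genes. Relative to the endothelial-like mean RPKM, Fcgr2b had a median of 9.87% in monocyte-derived-like cells (7.71% to 13.1% over mice) and of 6.34% in B-cell-like cells (3.05% to 9.26%), against 0.721% and 1.19% for the endothelial marker Stab2. In KC-like cells Fcgr2b was at 1.75%, below Stab2 (4.54%) and Dnase1l3 (2.67%) and above Clec4g (1.26%), and in T-cell-like cells it was at 0.798%, beside 0.688% for Stab2. In NK-like cells it was at 3.24% (0.101% to 6.08% over mice), beside 0.909% for Stab2, and above Stab2 in 5 of 6 mice. The KC-like and T-cell-like levels of Fcgr2b were thus within or near the range of these endothelial markers, whereas those of monocyte-derived-like and B-cell-like cells were above them in all 6 mice.

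NK-like cells were compared with T-cell-like cells, the lymphocytes nearest to them. Fcer1g was higher in NK-like cells by 7.39 (SE 0.45, limma with Benjamini-Hochberg adjustment, adjusted p = 1.28e-07, 6 of 6 mice), and it was the 1 member called of 4 tested, beside 2.89% of 4954 genes (1.07% higher and 1.82% lower in NK-like cells). Fcgr3, the receptor through which NK cells bind IgG, was at 1.84 against 1.02, a difference of 0.82 (SE 0.37, adjusted p = 0.297) in the same direction in 6 of 6 mice. Only 2 of 50 NK-like cells reached 100 RPKM of Fcgr3 (95% exact binomial interval 0.488% to 13.7%), against 4 T-cell-like cells (1.29%, 0.354% to 3.28%). At least 1 RPKM was seen in 17 of 50 NK-like cells, 27.8% of T-cell-like cells and 29.7% of B-cell-like cells, at median depths of 112210, 136233 and 112885 reads. With every cell thinned to 50000 reads the expected share was 23.4% in NK-like (46 cells) and 15.1% in B-cell-like cells (210 cells), and that of T-cell-like cells was the lowest, with 4, 39 and 26 shallower cells left out. The 4 T-cell-like cells came from 4 mice and had a median of 9.65 on the log2 scale, while the median of the remaining T-cell-like cells was 0, so a mean RPKM of Fcgr3 over these cells is no level of the class. With classes formed on variable genes, the first clustering made and later replaced, the Fcer1g difference was 1.78 (limma adjusted p = 0.0635, 5 mice). Fcgr2b and Fcgrt differed by 0.43 and 0.33 (adjusted p = 0.702 and 0.711).

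In B-cell-like cells the 2 members called against T-cell-like cells, of 4 tested and beside 42.3% of 4766 genes (9.76% higher in B-cell-like cells), were Fcgr2b, by 1.48 (SE 0.21, limma adjusted p = 2.32e-05), and Fcgrt, by 1.11 (SE 0.21, adjusted p = 0.000417), each higher in 6 of 6 mice. Fcgrt lost its call when cells with markers of another class were left out (0.61, adjusted p = 0.447). Fcgr1, Fcgr3 and Fcgr4 reached 100 RPKM in 0 B-cell-like cells (exact binomial upper bound 1.47%). Fcgr1 and Fcgr4 were below the filter on low means in the lymphocyte comparisons. Between NK-like and B-cell-like cells 1 of 4 members was called, beside 12.1% of 4717 genes (7.19% higher and 4.96% lower in NK-like cells): Fcer1g, higher in NK-like cells by 7.04 (SE 0.48, adjusted p = 5.49e-08). Fcgr2b was lower there by -1.05 (SE 0.50, adjusted p = 0.209).

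The balance of measured activating and inhibitory receptor RNA differed between the classes. For each cell the RPKM of Fcgr1, Fcgr3 and Fcgr4 were added, put on the log2 scale, and the Fcgr2b level was subtracted. The mean over mice was 4.49 ± 1.09 in KC-like cells, above 0 in 6 of 6 mice, and -7.88 ± 1.68 in endothelial-like cells, above 0 in 0 of 6 mice. Monocyte-derived-like cells lay between, at 0.06 ± 1.92, with 3 of 6 mice above 0 and values from -2.79 in HFD1 to 3.10 in HFD3. B-cell-like cells were at -3.13 ± 1.41, T-cell-like cells at -1.71 (-3.08 to 0.24 over mice) and NK-like cells at -1.54 ± 1.69, above 0 in 0, 1 and 1 of 6 mice. By the shares given above, the activating receptors of endothelial-like and B-cell-like cells were near KC marker genes. Fcgr2b of KC-like and T-cell-like cells was near endothelial marker genes. The endothelial-like balance was -9.76 in HFD2 and -5.01 in HFD3. The KC markers averaged 1.14 and 5.42 in the endothelial-like cells of these mice. The part of free RNA in the balance was not tested. Of the 240 KC-like cells, 76 had all 3 activating receptors at 1 RPKM or more, 42.1% had 2, 45 had 1 and 18 had none.

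At 100 RPKM, Fcgr3 was reached in 140 of 240 KC-like cells (58.3%), Fcgr4 in 52.5% and Fcgr1 in 57 (23.8%), against 23, 14 and 10 of 61 monocyte-derived-like cells. In the 24 KC-like cells with Fcgr2b at that level, 9 (37.5%) also had the T cell gene Cd3e, 10 (41.7%) the B cell gene Cd79a and 6 (25%) the endothelial gene Stab2 at or above 100 RPKM, against 1.85%, 0.926% and 13.4% of the remaining KC-like cells; whether doublets have a part in this was not tested. Fcgr3 and Fcgr2b share sequence: 12.8% of the 1298 stretches of 50 bases in the Fcgr3 transcript also occur in that of Fcgr2b, and since the authors kept unique reads, the RPKM of both genes may be low for that stretch.

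The 61 monocyte-derived-like cells were parted by markers into MoMac1-like (18 cells, led by Ace, S1pr5, Ear2 and Nr4a1, genes of patrolling monocytes), MoMac2-like (11 cells, led by Hp, Ly6c2 and Fn1, genes of classical monocytes) and cDC-like (32 cells, led by class II antigen-presentation genes). The receptors divided these cells, though too few mice had 3 cells of each for a test. The median over cells of Fcgr4 was 5.81 in MoMac1-like cells and 0 in both other groups, and it was detected in 15 of 18, 4 of 11 and 6 of 32 cells. Fcgr1 had its highest median, 5.55, in MoMac2-like cells and was at 0 in both other groups. For Fcgr2b the MoMac2-like median was 7.60, the cDC-like median 6.82 and the MoMac1-like median 4.13. Fcgr3 was at 6.97 in MoMac2-like, 5.34 in MoMac1-like and 0 in cDC-like cells, and Fcer1g was at 11.73, 11.92 and 10.91. Fcgrt had its highest median in the cDC-like group, 5.74 against 4.19 in MoMac1-like and 2.76 in MoMac2-like cells. Within that group the median was 8.18 in 7 cells with C1qa at or above 100 RPKM and 4.32 in the other 25.

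**Figure D4:**
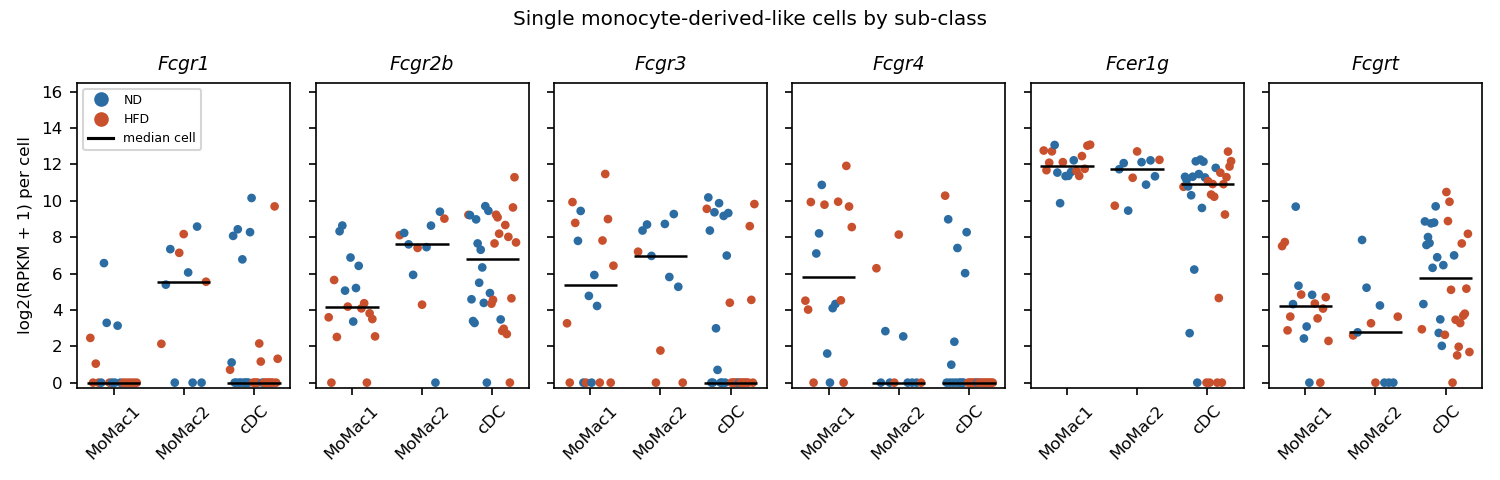
Level of each Fc receptor gene, as log2(RPKM + 1) on the vertical axis, in every monocyte-derived-like cell, by subgroup and diet, with a line at the median of the cells. Fcgr4 is led by MoMac1-like cells (median 5.81) and Fcgr1 by MoMac2-like cells (5.55). Fcgrt has its highest median in the cDC-like group (5.74), with 4.32 in its 25 cells with C1qa under 100 RPKM.

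The cDC-like group was not uniform. After its values were seen it was split by the macrophage gene C1qa: 7 cells from 4 mice were at or above 100 RPKM, of which 4 reached that level for Fcgr1, 5 for Fcgr3 and 6 for Cx3cr1, and 0 had any Flt3, a dendritic cell gene. Among the other 25 cells 2 reached it for Fcgr1 and 5 for Fcgr3, and 12 had Flt3. Median Fcgrt was 8.18 in the 7 cells and 4.32 in the other 25, and median Fcgr2b was 4.92 and 7.65. The subgroups were uneven over mice: mouse HFD3 had 4 MoMac1-like cells among its 6 monocyte-derived-like cells and the highest Fcgr4 of the class (5.84), and ND2 had 1 cDC-like cell among 9. In HFD3 these 6 cells also carried the neutrophil marker list at 2.54, against 0.50 to 1.30 in the other mice; its part in the Fcgr4 level was not tested.

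Endothelial-like cells came from 2 clusters, of 267 and 191 cells, both of which carried all 13 endothelial markers. In the 5 mice with at least 3 cells of each, Fcgrt was at 7.99 ± 0.60 in the larger and 9.60 ± 0.51 in the smaller cluster, and Fcgr2b at 9.86 ± 0.23 and 10.57 ± 0.43, each lower in the larger cluster in 5 of 5 mice (exact sign-flip p = 0.0625, the smallest that 5 mice allow). The clusters also differed in other genes: Stab2, at 9.12 and 10.22, in the same direction, and the KC marker Clec4f, at 4.24 and 2.29, in the opposite direction. Their part in the Fc receptor levels was not tested. The clusters were uneven over mice, with 38 of 39 endothelial-like cells of HFD3 in the larger and 89 of 100 of HFD2 in the smaller cluster.

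The genes around the receptors were examined as a list of 40 (adaptors, kinases, signal carriers, phosphatases, NADPH oxidase subunits, other Fc receptors and receptors that pair with Fcer1g), in which Faim3 and Fcmr are an older and the current symbol of 1 gene, measured as Faim3, and Oscar was not analysed here. Genes whose mean was under 1 in 1 of the classes were tested only through the class in which they were high, and they made up 4 of 17 listed genes called in KC-like against monocyte-derived-like cells, 6 of 19 in KC-like against endothelial-like, 8 of 23 in endothelial-like against monocyte-derived-like, 2 of 3 in NK-like against T-cell-like, 14 of 22 in B-cell-like against T-cell-like and 8 of 18 in NK-like against B-cell-like cells; their direction was fixed by the filter. In KC-like against monocyte-derived-like cells, 27 were tested, and 2 were higher and 15 lower in KC-like cells, beside 6.09% and 33.1% of all genes, with a median difference of -1.14 beside -0.68 over all genes. Among the large differences were those of the phosphatase Ptpn6 (-3.01, SE 0.35), the kinase Fgr (-2.85, SE 0.36) and the inositol phosphatase Inpp5d, which acts below Fcgr2b (-2.65, SE 0.41). By role, 3 of 6 kinases, 5 of 6 signal carriers tested and all 3 inhibitory phosphatase and docking genes were lower. Against endothelial-like cells 24 were tested, and 18 were higher and 1 lower in KC-like cells, beside 18% and 37.4% of all genes: the adaptor Tyrobp by 7.09 and the oxidase subunits Cybb by 4.36 and Cyba by 4.23, while the kinase Fyn was lower by -2.89. Between endothelial-like and monocyte-derived-like cells 2 of 26 were higher and 21 lower, beside 14.7% and 28.6% of all genes, led by Tyrobp at -7.15 and Ptpn6 at -5.65.

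In NK-like against T-cell-like cells 3 of 21 listed genes were higher and 0 lower, beside 1.07% and 1.82% of all genes: Tyrobp by 7.56, the adaptor Lat2 by 2.96 and the phospholipase Plcg2 by 2.59, the last 2 with T-cell-like means of 0.64 and 0.51. In B-cell-like against T-cell-like cells 16 of 28 were higher and 6 lower, beside 9.76% and 32.5% of all genes, led by Faim3, which encodes an IgM receptor (7.50), Fcer2a, the low-affinity IgE receptor (5.55), the B cell adaptor Blnk (4.44) and the Fc receptor-like gene Fcrla (4.33), the last 2 with T-cell-like means of 0.50 and 0.62. Against B-cell-like cells 5 of 28 were higher and 13 lower in NK-like cells, beside 7.19% and 4.96% of all genes. No listed gene was called between the diets in any class.

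Genes with a pattern most like each member's were found by Pearson correlation over 30 points (5 classes, T-cell-like cells left out, in 6 mice), among up to 1874 genes. The points share libraries and mice, and the values are descriptions. Fcer1g was nearest to Tyrobp (r = 0.98), which encodes another ITAM adaptor of myeloid and NK cells, and then to Itgal (0.89) and Tmsb4x (0.86). Fcgr2b was nearest to Cd300lg (0.95), Tek (0.93) and Tmem204 (0.92), which are endothelial genes. Fcgrt was nearest to Tcn2 (0.94), Ctnnd1 (0.93) and Sepp1 (0.91), Fcgr3 to Csf1r (0.93), Aif1 (0.92) and Itgb5 (0.92), Fcgr4 to Siglece (0.95), Emr1 (0.94) and Cd300ld (0.94), and Fcgr1 to Aif1 (0.95), Clec12a (0.92) and Rab32 (0.91). Between members, r was 0.91 for Fcgr3 with Fcgr4, 0.85 for Fcgr1 with Fcgr3 and 0.68 for Fcgr2b with Fcgrt, and it was -0.56 for Fcgr2b with Fcer1g.

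Diet was tested in each class with 3 mice a side. No member tested passed limma with Benjamini-Hochberg adjustment in any of the 6 classes (adjusted p between 0.994 and 1.0), and 0 were under an unadjusted p of 0.05 within a class. All 6 members were tested in KC-like and monocyte-derived-like cells, and 4 in each other class. In simulated data a shift of 2 on the log2 scale was called for 40.3% of shifted genes in KC-like cells. That share was 55.2% in endothelial-like, 43.3% in B-cell-like and 47.8% in T-cell-like cells, but 1.49% in monocyte-derived-like and 0% in NK-like cells. The lack of calls therefore does not show equal levels. Over all genes 1 of 3276 was called in KC-like cells (0.0305%), where 73 had an unadjusted p under 0.05, and 0 in the other 5 classes, where between 88 (endothelial-like) and 198 (monocyte-derived-like) did. The mean of HFD mice was the lower in 25 of the 36 pairs of member and class, which share mice; over all genes the median HFD minus ND difference was also below 0 in each of the 6 classes, from -0.30 to -0.10.

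In KC-like cells Fcgrt was at 7.25, 7.34 and 7.26 in ND mice and 6.92, 6.77 and 5.37 in HFD mice. Fcer1g was at 10.96, 10.95 and 11.31 in ND mice and 10.74, 9.80 and 10.46 in HFD mice. Each HFD value of these genes was below each ND value, with a difference of -0.93 (SE 0.54) for Fcgrt and -0.74 (SE 0.50) for Fcer1g, and the exact two-sided permutation p of 0.1 is the smallest that 3 against 3 allows. Without HFD3 the Fcgrt difference was -0.44, and without HFD2 the Fcer1g difference was -0.47. Groups did not overlap in 2 of 6 members in KC-like cells, beside 5.89% of 3276 genes, and in 0 members in the other classes, beside 5.09% of genes in endothelial-like, 8.62% in monocyte-derived-like, 8.68% in B-cell-like, 9.73% in NK-like and 8.16% in T-cell-like cells. Median genes per KC-like cell were 2641, 2089 and 2116 in ND mice and 2221, 1370 and 3070 in HFD mice; the part of depth in these differences was not tested.

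The activating receptors did not separate by diet in KC-like cells. The HFD minus ND difference was -0.65 (SE 0.61) for Fcgr3, -0.39 (SE 0.64) for Fcgr4 and -0.23 (SE 0.56) for Fcgr1, and HFD2 held the lowest value of each. Without HFD2 all 3 differences turned, to 0.09, 0.40 and 0.18. In monocyte-derived-like cells Fcgr1 was at 2.96, 1.97 and 3.58 in ND mice and 2.07, 0.97 and 1.06 in HFD mice, a difference of -1.47 (SE 0.79, limma adjusted p = 0.998), with 1 HFD mouse above the lowest ND mouse. In endothelial-like cells Fcgr2b differed by 0.01 (SE 0.49) and Fcgrt by -0.07 (SE 0.53), and without HFD3, which was lowest for both, by 0.54 and 0.64. The diet difference itself was compared between KC-like and endothelial-like cells: the HFD minus ND difference of Fcgrt in KC-like cells minus that in endothelial-like cells was -0.86 (unadjusted p = 0.0465 in limma, adjusted p = 0.999), and its groups did not overlap, beside 7.93% of 4769 genes. With limma's adjusted p 0 genes were called in that comparison, where 3.06% had an unadjusted p under 0.05, and Fcgrt was the 1 member with an unadjusted p under 0.05.

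**Figure D5:**
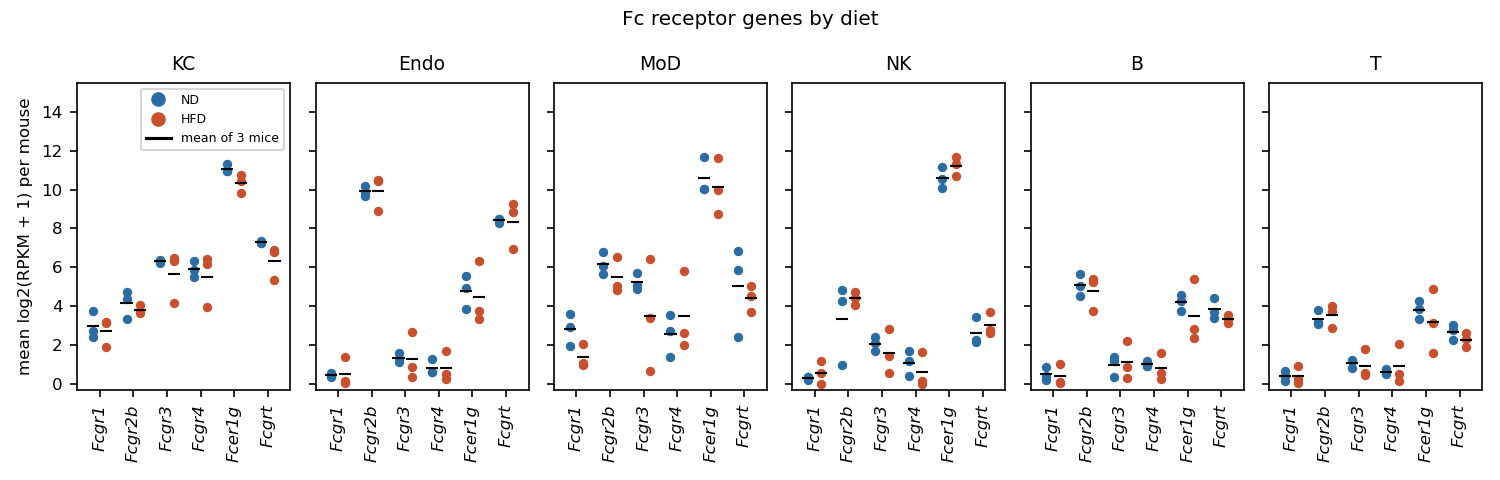
Mean log2(RPKM + 1) of the 6 Fc receptor genes by mouse and diet in each of the 6 cell classes, with a line at the mean of the 3 mice. In KC-like cells the 3 HFD values lie below the 3 ND values for Fcgrt (5.37 to 6.92 against 7.25 to 7.34) and for Fcer1g (9.80 to 10.74 against 10.95 to 11.31), and the diets overlap for every other gene and class.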

How the data were processed

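The table held 1470 single-cell Smart-seq2 libraries of 6 mice. Per the labels and the study's methods, the authors sequenced 50-base single reads, aligned them with STAR to mm10, kept unique reads, computed RPKM over RefSeq gene models with rpkmforgenes, and removed poor cells and Scrublet doublets before deposit. The deposited RPKM values were used as log2(RPKM + 1). The number of reads per cell was not given and was estimated from steps in low RPKM values, using the lengths of 10722 genes: 74.8% of such values lay within 0.1 of a whole multiple of 1 read. At the median depth, 121798 reads, 1 read was worth 3.17 RPKM of Fcgr1, 6.10 of Fcgr3, 6.54 of Fcgr4, 12.2 of Fcer1g and 4.64 of Fcgrt.

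Cells were clustered (12 clusters, 20 principal components, 15 neighbours) on the fixed markers, and a cluster took a name with at least 3 raised markers of its class and no more of another class among its 10 leading genes. A first clustering on 1000 variable genes put 84 cells of HFD2 with the NK-like cells, was replaced before the members were examined with these classes, and is kept as an alternative. The members and lists were chosen with earlier results of these data known. The markers come from textbook knowledge and from the study's supplementary tables, which were made on the same libraries. Those tables list Fcgr2b and Fcgrt for endothelial cells, and both were left out of the markers.

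Means per class and mouse (at least 3 cells) were compared over mice, which the labels name, with limma 3.58.1 (R 4.3.3, no trend), on genes whose mean reached 1 in either class compared (for diet, in the class), with Benjamini-Hochberg adjustment over all genes tested and a threshold of 0.05, and single pairs with exact permutation tests. The depth estimate and the fits were tested on simulated data. Positions, promoters and transcripts were from RefSeq GRCm38.p6 and GENCODE vM21, the build of mm10. All 6 members were named, with the up to 4 largest called pathway genes (some are not reported here) and 3 most alike genes each. Alternatives were the pseudocount (0.1), filters, averaging, clustering, cells left out, each mouse left out and a replicate block.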

Additional observations from a re-analysis of the deposited data

Results flagged for a closer look

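In 28 groups of 6 mice, 4 had a mouse that stood apart from the rest by Dixon's test, a test that by chance marks about 1 group in 20. Fcgr2b in NK-like cells was at 0.999 in the 5 NK-like cells of mouse ND2, against 4.04 to 4.86 in the other mice. In KC-like cells mouse HFD2, which had the fewest genes per cell, was lowest in Fcgr3, at 4.16, and in Fcgr4, at 3.94, and mouse HFD3 was lowest in Fcgrt, at 5.37. No cause was tested.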

How the results depend on the processing

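Of the recomputed counts and orders, 7 moved by over 1.5 times and the rest did not. Members called fell from 4 to 1 for KC-like against monocyte-derived-like cells without the gene filter and to 1 with RPKM averaged before the logarithm, from 6 to 3 for endothelial-like against monocyte-derived-like cells and from 2 to 1 for B-cell-like against T-cell-like cells without cells holding markers of another class, and the neighbouring classes that differed went from 10 to 1 with those cells left out, where pairs with under 6 mice cannot pass the test; 10 of 30 neighbours then had the same direction in every mouse. Classes from variable genes, the first clustering made and later replaced, gave 0 in place of 1 for NK-like against T-cell-like cells (491 genes called). For NK-like against B-cell-like cells they gave 2 in place of 1, with 660 genes called in place of 573. Fcer1g turned from 0.35 to -2.25 (adjusted p = 0.00916) in B-cell-like against T-cell-like cells when RPKM was averaged before the logarithm. The cause was not tested. Leaving out 1 mouse gave 3 to 5 members for KC-like against monocyte-derived-like cells and changed no other count; Fcgr1 was then called without ND3 (1.13). For single genes 1081 values kept their direction and side of the threshold, 16 fell below it, 3 passed it and 1 reversed. With the replicate block 0 members were called by diet in any class, as without it, and same-numbered ND and HFD mice correlated between -0.19 and 0.21, over 0.1 in 4 of 18 pairs, so the numbers were not taken as pairs. As a hint from the data, 10 of 18 correlated best with their own number, among them all 3 in B-cell-like and all 3 in NK-like cells. Shallow cells limit Fcgr3 and Fcgr4, where 1 read exceeds 6 RPKM, and Fcer1g, where it is worth 12.2 RPKM at the median depth.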

Other observations

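Fcer1g was also found in a few T-cell-like cells: 25 cells (8.09%, 95% exact binomial interval 5.30% to 11.7%), from all 6 mice, were at or above 100 RPKM. Of these, 22 had Cd3e, 11 had Tyrobp, 3 had Fcgr3, 2 had the NK gene Ncr1 and 0 had Clec4f at or above that level, and their median number of genes was 2732, against 2554.5 in the other T-cell-like cells. In B-cell-like cells 10 (4.02%) reached it.

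Among the smaller classes, 10 of 15 neutrophil-like cells were at or above 100 RPKM for Fcgr3, 3 for Fcgr4 and 0 for Fcgr1, and 15 of 15 for Fcer1g. Of 22 pDC-like cells 20 reached it for Fcer1g, 0 for Fcgr1, Fcgr3 and Fcgr4 and 1 for Fcgr2b.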
